A study of Rattus norvegicus with 6 samples.

Results

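The Notch family is described here through 10 genes, chosen by symbol from the 19266 genes of the deposited table: the receptors Notch1, Notch2 and Notch3, the ligands Jag1, Jag2 and Dll1, and the target genes Hes1, Hey1, Hey2 and Heyl. All 10 symbols were in the table. RNA was sequenced from 6 libraries labelled as rat bone marrow mesenchymal stem cells of the line SCSP-402 with wild-type genotype. In 3 libraries the stem cells had been grown together with BV2, an immortalized microglial line from mouse, and stimulated with lipopolysaccharide (LPS), the outer membrane glycolipid of Gram-negative bacteria that toll-like receptor 4 senses. The other 3 libraries came from the same co-culture without LPS, and the design text names the restraint of microglial activation by the stem cells as the question. The dose and duration of LPS, the layout of the co-culture and the treatment of mouse reads are not stated in the labels. Nothing in the labels says that the replicates were separate cultures, so p-values speak only for the variation among these 6 libraries, part or all of which could be technical.

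Notch signalling works between touching cells. A Jagged or Delta ligand on one cell binds a Notch receptor on its neighbour, the receptor is cut by ADAM10 and then by gamma-secretase, and the freed intracellular part enters the nucleus. There it joins the DNA-binding protein RBPJ and a Mastermind co-activator and switches on Hes and Hey genes, which encode transcriptional repressors. In bone marrow stroma the pathway is known for holding mesenchymal progenitors back from bone formation, and JAG1 is a known stromal signal to blood stem cells.

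The sequences just upstream of 3 members are shown because they hold the letters TGGGAA, the core of the DNA site that RBPJ binds. They are RefSeq sequences of the rat build GRCr8, covering the 250 bases before each gene's start, read on the gene's strand, with TGGGAA or its reverse complement in capitals.
Hes1, chr11:84213046-84213295, minus strand: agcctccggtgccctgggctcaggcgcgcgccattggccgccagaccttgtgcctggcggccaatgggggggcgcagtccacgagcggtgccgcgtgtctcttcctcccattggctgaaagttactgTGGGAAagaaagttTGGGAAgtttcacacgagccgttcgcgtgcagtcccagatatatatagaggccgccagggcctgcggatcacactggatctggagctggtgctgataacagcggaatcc
Hey2, chr1:28640850-28641099, plus strand: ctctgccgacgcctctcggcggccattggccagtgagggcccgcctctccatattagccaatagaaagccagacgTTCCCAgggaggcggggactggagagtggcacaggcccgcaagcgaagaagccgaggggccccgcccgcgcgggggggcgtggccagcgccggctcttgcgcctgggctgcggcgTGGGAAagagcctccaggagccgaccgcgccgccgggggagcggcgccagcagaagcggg
Dll1, chr1:64993275-64993524, minus strand: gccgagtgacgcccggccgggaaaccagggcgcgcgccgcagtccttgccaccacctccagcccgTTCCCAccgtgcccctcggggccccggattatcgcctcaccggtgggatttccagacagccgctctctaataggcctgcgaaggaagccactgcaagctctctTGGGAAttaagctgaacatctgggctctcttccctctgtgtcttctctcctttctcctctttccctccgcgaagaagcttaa

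In Hes1 both matches lie on the gene's own strand, starting 123 and 109 bases before the start. In Hey2 they start 175 bases before it, on the opposite strand, and 60 bases before it, on the gene's strand. In Dll1 they start 185 bases before it, on the opposite strand, and 82 bases before it, on the gene's strand. Windows of 300 bases, from 250 before to 50 after the start, were searched on both strands for 9 of the 10 members. Hey1 had no entry in the promoter table. Hes1, Hey2 and Dll1 each held 2 matches, and Notch3 held 1, inside the 50 bases after its start. Among all 33469 promoter windows of that length, 25.7% held at least 1 match and 3.85% at least 2. A match of letters is a description and not evidence of binding.

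The libraries held between 77.4 M and 82.0 M count units, and 1 sequenced fragment was taken to be worth about 4 of these units. That value is an assumption drawn from an excess of multiples of 4. All fragment counts and counting intervals below rest on it. The first principal component held 76.5% of the variance and placed the LPS libraries at 19.5 to 22.5, untreated replicates 2 and 3 at -26.7 and -26.6, and untreated replicate 1 apart from both at -11.0. The libraries carried the stromal genes of the label, since 8 of 9 stromal markers were above the expression filter, with summed levels of 13580 to 13768 FPKM with LPS and 17105 to 18779 FPKM without. That sum is mostly Col1a1 and Col1a2, the 2 stromal markers that fell, while the other 6 tested ones rose, among them Pdgfra (2.90-fold), Nt5e (2.73-fold) and Prrx1 (1.82-fold). FPKM is fragments per kilobase of transcript per M fragments and allows levels of different genes to be compared. Of 12 microglial markers in the table, 11 stood at a mean of 0.194 FPKM or less in either group, and their summed level was 0.262 to 0.514 FPKM with LPS and 0.295 to 0.754 FPKM without. Ptprc, Trem2, C1qa and C1qb were listed at 0 in all LPS libraries, and Aif1 in all untreated libraries. Itgam averaged 0.0625 FPKM with LPS and 0.00655 FPKM without, and its groups did not overlap. The twelfth, Tmem119, which bone-forming cells also express, averaged 69.4 ± 1.20 FPKM with LPS and 64.7 ± 2.14 FPKM without (SD, n = 3 each). The 6 endothelial markers in the table summed to 0.955 to 1.13 FPKM with LPS and 3.80 to 4.86 FPKM without, and the defining markers Pecam1 and Cdh5 averaged 0.00944 and 0.0108 FPKM with LPS and were listed at 0 in all untreated libraries. Erg, an endothelial transcription factor, made up most of that sum, at 0.694 ± 0.0527 FPKM with LPS and 3.71 ± 0.522 FPKM without (SD, n = 3 each; adjusted p = 4.02e-05, edgeR). Tek, an angiopoietin receptor below the expression filter, averaged 0.248 FPKM with LPS and 0.655 FPKM without, and its groups did not overlap.

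With LPS, the co-cultures held less RNA of the ligand Jag1 and of the receptors Notch1 and Notch3, and slightly more of the receptor Notch2. Jag1 was 3.75-fold lower, Notch3 3.20-fold lower and Notch1 2.09-fold lower, while Notch2 was 1.15-fold higher. Genes were tested if 3 or more libraries reached 1 FPKM. Of the 5 members past this filter, 3 fell, 1 rose and Hes1 did not pass. Over all 11559 tested genes edgeR's quasi-likelihood test called 39.1%, with 20.1% higher and 19.0% lower. All 5 tested members were above 1 FPKM in each of the 6 libraries, so none entered through 1 group alone. Their median log2 fold change was -1.06, against 0.00 over all tested genes. The other 5 members, Jag2, Dll1, Hey1, Hey2 and Heyl, were below the filter. When the same test was run on all 19266 genes without a filter it called 22.8% of them, 11.9% higher and 10.9% lower, and of the 10 members it called 1 higher and 6 lower, adding Hey1, Hey2 and Heyl to the lower ones.

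**Figure D1:**
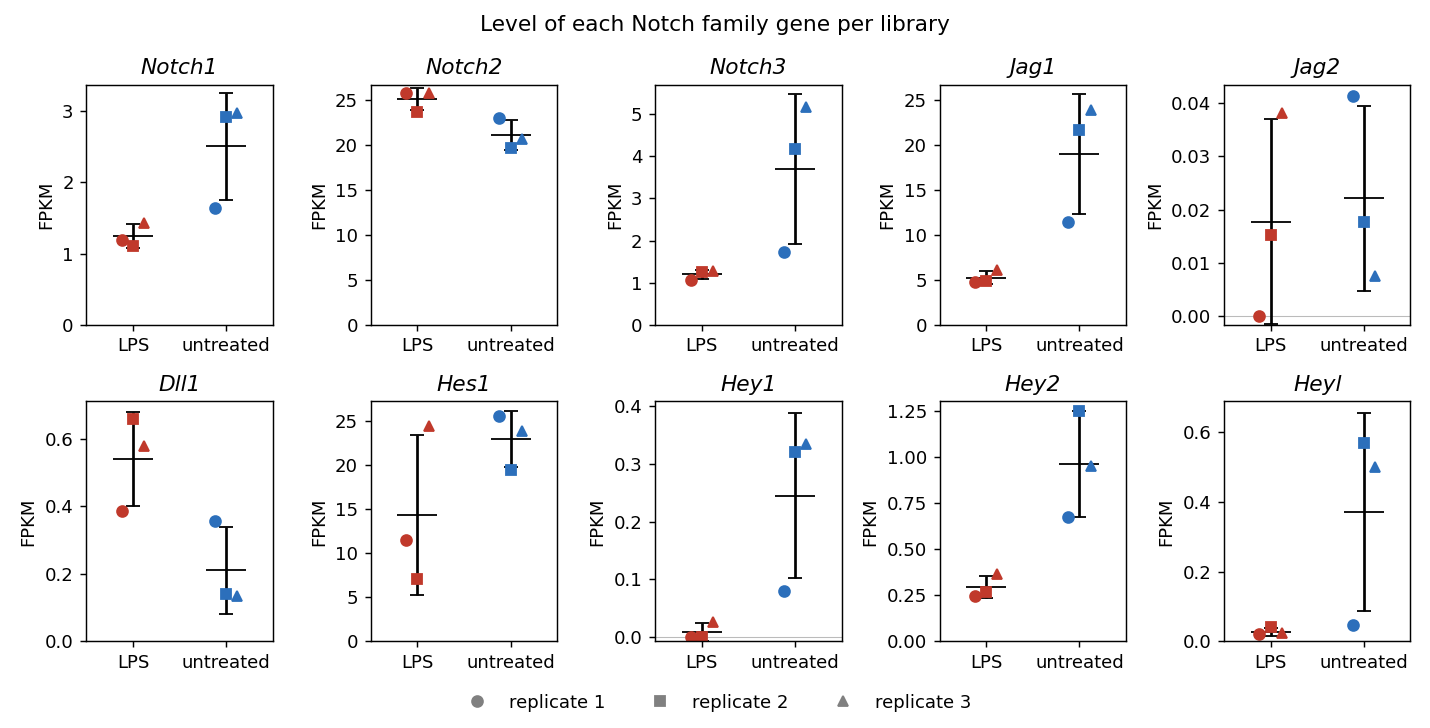
FPKM of the 10 Notch family genes in each library, with LPS left and untreated right in each panel, 3 libraries each (circle, square and triangle for replicates 1, 2 and 3); bars give the mean and SD. The groups do not overlap for 8 genes, and untreated replicate 1 is the untreated library nearest to the LPS values for those 8.

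The FPKM values of the groups did not overlap for 8 of the 10 members, 6 lower and 2 higher with LPS, where 38.4% of all genes in the table had groups that did not overlap. For Dll1 and Heyl the nearest libraries of the groups were only 0.0280 and 0.00568 FPKM apart. The 2 members whose groups overlapped were Hes1 and Jag2. Across the members the order of levels also differed between the groups. With LPS, Notch2 stood first with a mean of 25.1 FPKM, then Hes1 with 14.3 and Jag1 with 5.24, with the libraries of Notch2 and Hes1 overlapping. In untreated co-culture Hes1 (22.9 FPKM), Notch2 (21.2 FPKM) and Jag1 (19.0 FPKM) overlapped in their libraries. Notch1 and Notch3 followed in both groups and overlapped each other in both. Dll1 stood sixth with LPS, above Hey2, and ninth in untreated co-culture, where its libraries overlapped those of Heyl and Hey1. Jag2 was near 0 in both groups.

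Among the receptors, Notch2, a broadly expressed receptor with known roles in bone remodelling, was the most abundant. Its gene lies on chromosome 2 from 185610589 to 185744088, plus strand, in mRatBN7.2, the build given in the submitters' processing notes. Notch2 stood at 25.8, 23.7 and 25.9 FPKM in the LPS libraries and at 23.0, 19.7 and 20.7 FPKM in the untreated libraries. No LPS library was as low as any untreated one, but the gap between the nearest pair, LPS replicate 2 and untreated replicate 1, was only 0.654 FPKM. Its log2 fold change of 0.20 ± 0.065 (SE) passed edgeR's test (adjusted p = 0.0381). The call was lost in 6 of 16 alternatives, among them leaving out untreated replicate 2 (adjusted p = 0.113), untreated replicate 3 (0.0942), LPS replicate 1 (0.129) or LPS replicate 3 (0.113), while the direction held in all 16.

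Notch3, the receptor best known from vascular smooth muscle cells and pericytes, lies on chromosome 7 from 11133706 to 11184025, minus strand. It stood at 1.06, 1.26 and 1.27 FPKM with LPS and at 1.72, 4.19 and 5.18 FPKM without. The LPS libraries were close together and all below the untreated ones, among which replicate 1 was far lower than the others. The log2 fold change was -1.68 ± 0.34 (SE; adjusted p = 0.00534), and only 54 of the 11559 tested genes had a more negative one. Without untreated replicate 1 Notch3 was 4.06-fold lower.

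Notch1, which lies on chromosome 3 from 9278086 to 9323531, minus strand, stood at 1.20, 1.10 and 1.43 FPKM with LPS and at 1.64, 2.91 and 2.97 FPKM without. It showed the same arrangement as Notch3, with untreated replicate 1 nearest to the LPS libraries. Its log2 fold change was -1.06 ± 0.22 (SE; adjusted p = 0.0057). Notch1 and Notch3 passed the test in all 15 alternatives that tested them.

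**Figure D2:**
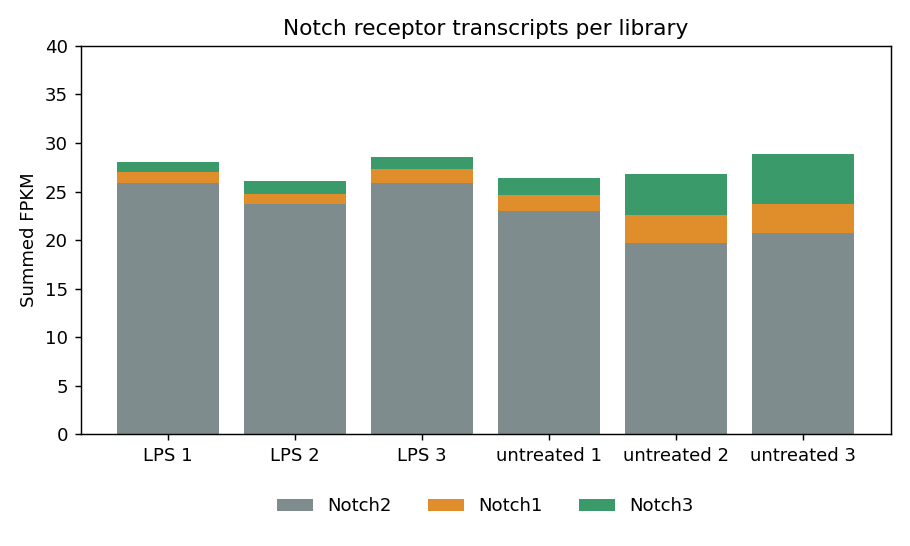
Summed FPKM of Notch2, Notch1 and Notch3 in each library, LPS libraries left and untreated libraries right, stacked by receptor. The totals lie between 26.1 and 28.9 FPKM in all 6 libraries, while Notch3 and Notch1 fill less of the column in the LPS libraries.

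The summed level of the 3 receptors was similar in both groups, at 27.6 ± 1.34 FPKM with LPS and 27.4 ± 1.33 FPKM without (SD, n = 3 each; exact two-sided permutation test, p = 1.0), and the groups overlapped. Its make-up differed. Notch2 supplied 92.0%, 90.9% and 90.6% of that sum in the LPS libraries and 87.3%, 73.5% and 71.8% in the untreated libraries. Notch3 supplied 3.78%, 4.83% and 4.43% with LPS and 6.52%, 15.6% and 17.9% without. Notch1 supplied 4.26%, 4.23% and 5.02% with LPS and 6.21%, 10.9% and 10.3% without. The groups did not overlap for any of the 3 shares. For each of them the exact two-sided permutation test gave p = 0.1, the smallest that 3 against 3 libraries allow, and 0.133 after Benjamini-Hochberg adjustment over the 3 shares and the sum. In bulk RNA, fewer cells of a kind and less RNA per cell cannot be told apart.

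Jag1, a ligand of Notch receptors carried by stromal and vascular cells, was the most abundant of the 3 member ligands in both groups. It lies on chromosome 3 from 124406794 to 124442209, minus strand. Its level was 4.79, 4.83 and 6.11 FPKM with LPS and 11.4, 21.7 and 23.9 FPKM without. Even the lowest untreated library, replicate 1, was 5.32 FPKM above the highest LPS library. Its log2 fold change of -1.91 ± 0.25 (SE; adjusted p = 0.000655) was exceeded in the negative direction by 37 tested genes. Jag1 passed in all 16 alternatives, with a log2 fold change between -2.17 and -1.62.

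Dll1, a Delta-type ligand, was far rarer than Jag1 in both groups, and its values lay the other way. It stood at 0.385, 0.658 and 0.577 FPKM with LPS and at 0.357, 0.139 and 0.133 FPKM without, which corresponds to 27, 46 and 42 fragments with LPS and 26, 10 and 10 without. LPS replicate 1 and untreated replicate 1 were nearly level, and the other libraries were well apart. In the test without a filter, run on the count units as deposited, its log2 fold change of 1.32 ± 0.42 (SE) missed the threshold (adjusted p = 0.0567, edgeR). It passed with DESeq2 (adjusted p = 0.0137), with counts divided by 4 (0.0279) and without untreated replicate 1 (log2 fold change 1.93, adjusted p = 0.00247), over a range of adjusted p up to 0.181. Jag2, a second Jagged ligand, rested on 7 fragments over the LPS libraries and 8 over the untreated libraries. At this depth no difference was detectable, with a ratio of 0.866 and an exact 95% interval from 0.267 to 2.73 that covers counting error only.

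Hes1, the Hes-family repressor whose RNA is short-lived and is known to oscillate in cultured cells, was the most abundant of the target genes. It lies on chromosome 11 from 70705764 to 70708192, minus strand. Hes1 stood at 11.5, 7.03 and 24.4 FPKM with LPS and at 25.6, 19.4 and 23.8 FPKM without. LPS replicate 3 lay among the untreated libraries, and the other LPS libraries lay below all of them. Its log2 fold change of -0.73 ± 0.37 (SE) did not pass (adjusted p = 0.16, edgeR), so the difference did not exceed the spread between libraries. Without LPS replicate 3 the log2 fold change was -1.35 and passed the test (adjusted p = 0.00479). Among the 4 target genes Hes1, whose upstream sequence with its close pair of TGGGAA matches is shown above, had the smallest change and was the only one with overlapping groups.

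The Hey genes encode repressors that are known Notch targets in blood vessels and heart. Hey2 was the most abundant of them, at 0.248, 0.27 and 0.363 FPKM with LPS and 0.677, 1.25 and 0.954 FPKM without. Its groups were well apart, with 47 fragments over the LPS libraries and 151 over the untreated ones. The log2 fold change without a filter was -1.75 ± 0.29 (SE; adjusted p = 0.00367), and Hey2 passed in all 14 alternatives.

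Heyl stood at 0.0195, 0.0407 and 0.0231 FPKM with LPS and at 0.0464, 0.57 and 0.50 FPKM without. Rounded to whole fragments, the LPS libraries held 2, 4 and 2 of Heyl and the untreated libraries 5, 56 and 51. Untreated replicate 1 was therefore near the LPS level. Over all libraries the ratio of untreated to LPS was 12.6, with an exact 95% interval from 6.39 to 28.2 for counting error only, and 18.1 without untreated replicate 1. The adjusted p was 0.0142 by edgeR without a filter, and the call was lost in 6 of 14 alternatives, with adjusted p up to 0.149. Dropping untreated replicate 2 (0.053) or either of LPS replicates 1 and 3 (0.0614 and 0.0655) was enough.

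Hey1 was listed at 0 in LPS replicates 1 and 2 and stood at 0.0265 FPKM in LPS replicate 3, against 0.0796, 0.32 and 0.335 FPKM in the untreated libraries. These values rest on 2 fragments over the LPS libraries and 54 over the untreated ones. The ratio of untreated to LPS was 27.3, with an exact 95% interval from 7.19 to 231 for counting error only. The adjusted p was 0.0205, and the call was lost in 6 of 14 alternatives. Among them were leaving out untreated replicate 2 (adjusted p = 0.0755), untreated replicate 3 (0.0684), LPS replicate 1 (0.0551) or LPS replicate 2 (0.0628).

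**Figure D3:**
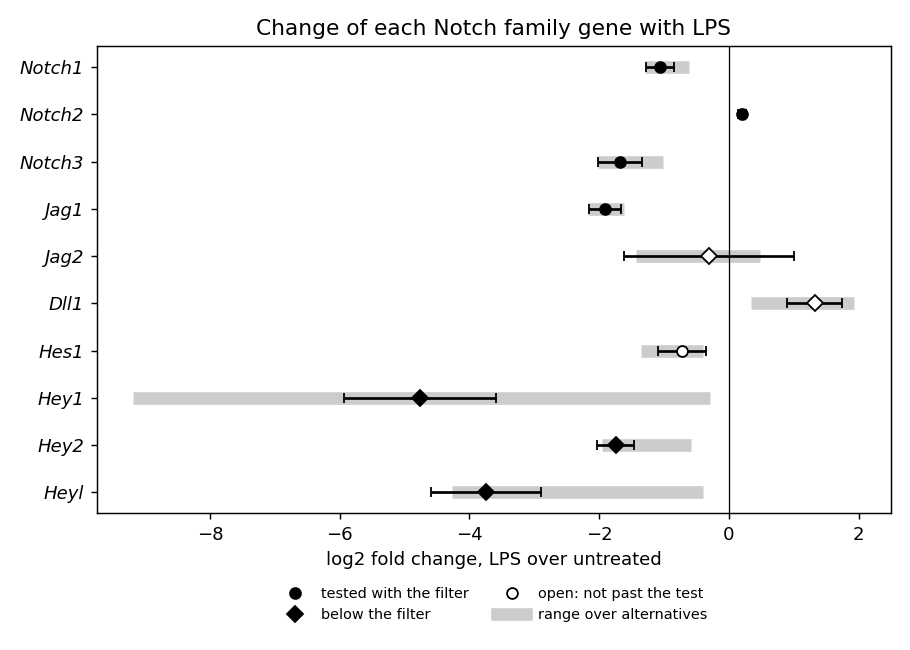
Log2 fold change of each member, LPS over untreated, with its SE; circles are members tested with the filter, diamonds members below it and tested without it, and open symbols did not pass. Grey bars give the range over all alternatives, some of which are on the log2(FPKM + 1) scale and so understate low genes; the left end of the Hey1 bar comes from a fit in which both LPS libraries were at 0 and is no bound. Jag1, Notch3, Notch1, Hey1, Hey2 and Heyl lie left of 0, and Notch2 and Dll1 lie right of it.

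For the 8 members whose groups did not overlap, untreated replicate 1 lay between 52.7% (Hey2) and 96.3% (Heyl) of the distance from the average of untreated replicates 2 and 3 to that of the LPS libraries. It lay at 84.9% for Notch3, 76.6% for Notch1, 64.6% for Jag1, 57.3% for Notch2, 54.7% for Dll1 and 77.8% for Hey1. The median over the 4524 genes called with the filter was 19.4%. For the genes outside the family that are named below for their similar profiles, the position ran from 45.8% (Ermp1) to 66.6% (Ptger3). Those genes were chosen by likeness over the same 6 libraries, untreated replicate 1 included, so their range follows from the choice. For the 7 called markers of vascular mural cells, described next, the position ran from -33.9% (Des) to 49.4% (Acta2), below the 52.7% of Hey2. It was 87.7% for the mural marker Rgs5, which was below the filter. For Hes1 the value was -54.8%, so there untreated replicate 1 was farther from the LPS mean than the other untreated libraries were. These are descriptions of 1 library, and what set it apart was not tested.

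Most tested markers listed for vascular mural cells (smooth muscle cells and pericytes) were lower with LPS as well. Notch3, Jag1 and Heyl are known to be active in mural cells. The labels name no mural cells, and which cells of the co-culture carried the transcripts of the listed markers was not tested. Of 9 tested markers on that list, 7 fell and none rose, also without untreated replicate 1. That is 77.8% called, against 39.1% of all tested genes (19.0% lower). Pdgfrb, also a mural marker but counted here among the stromal ones, went the other way and rose 1.26-fold (adjusted p = 0.000507, edgeR). It averaged 93.0 ± 0.496 FPKM with LPS and 71.1 ± 2.22 FPKM without. The summed level of all 10 listed mural markers was 1983 to 2123 FPKM with LPS and 3028 to 4024 FPKM without. Smooth muscle actin Acta2 averaged 833 ± 23.4 FPKM with LPS and 1781 ± 326 FPKM without. Smooth muscle myosin Myh11 averaged 4.52 ± 0.363 FPKM with LPS and 16.0 ± 3.63 FPKM without (SD, n = 3 each). The potassium channel genes Kcnj8 and Abcc9 did not pass (adjusted p = 0.598 and 0.217, edgeR), and the pericyte marker Rgs5 was below the filter at 0.117 FPKM with LPS and 0.388 FPKM without. The part of these genes, and of Erg and Tek, in the lower Notch3, Jag1 and Hey levels was not tested.

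Genes of the rest of the pathway moved in both directions. Of 58 other Notch pathway symbols in 6 lists, 55 were in the table and 45 were tested, of which 15 rose, 10 fell and 20 did not pass, with a median log2 fold change of 0.05. That is 55.6% called, against 39.1% of all tested genes. The directions differed between the lists. All those called among receptor-processing, sugar-adding and nuclear genes were higher, and 7 of the 8 called among genes of endocytosis and turnover were lower.

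**Figure D4:**
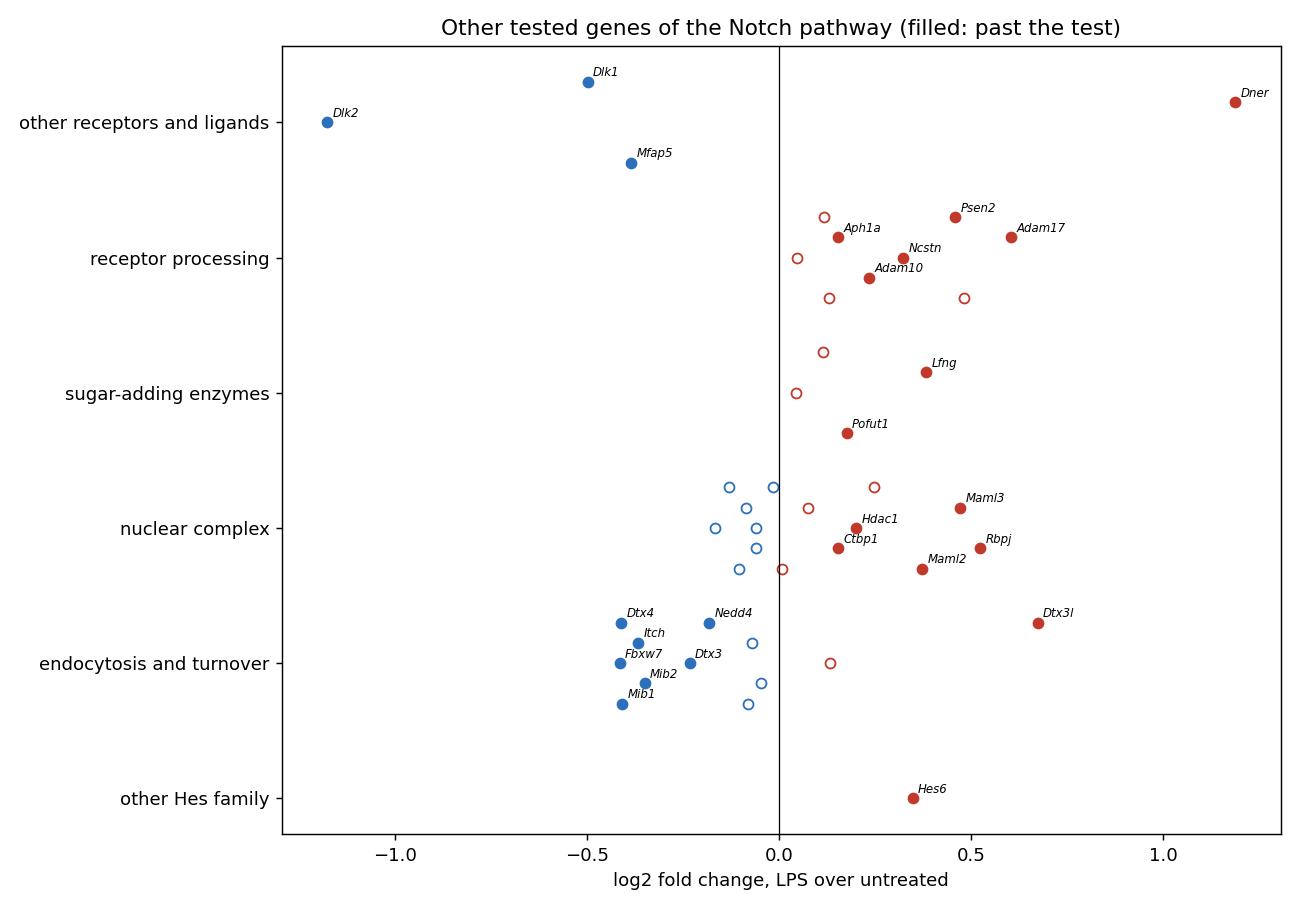
Log2 fold change, LPS over untreated, of the 45 tested pathway genes outside the 10 members, by list; filled and named points passed edgeR's test, red is higher and blue lower with LPS. Filled points of receptor processing, sugar-adding enzymes and the nuclear complex lie right of 0, and those of endocytosis and turnover lie left of it apart from Dtx3l.

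Of 9 tested receptor-processing genes, 5 rose and none fell, which is 55.6% called, against 39.1% of all tested genes (20.1% higher). Adam17, a protease that sheds many membrane proteins and can cut Notch receptors, averaged 27.4 ± 0.485 FPKM with LPS and 17.4 ± 1.63 FPKM without (log2 fold change 0.60 ± 0.064 SE, adjusted p = 0.000272). The gamma-secretase subunits Psen2 and Ncstn were 1.37-fold and 1.25-fold higher. The call of Psen2 was lost in 3 of 16 alternatives, those that dropped LPS replicate 2 (adjusted p = 0.0584, edgeR) or one of untreated replicates 2 (0.0540) and 3 (0.0511). Adam10, which makes the ligand-induced cut, was 1.18-fold higher and is named after its values were seen. Of 4 tested sugar-adding enzymes, 2 rose (50% called). They were Lfng (1.30-fold), whose product modifies Notch so that Delta ligands are favoured over Jagged ones, and Pofut1 (1.13-fold), which adds the O-fucose that Lfng extends. The call of Pofut1 was lost in 6 of 16 alternatives, among them leaving out untreated replicate 2 (0.0857), LPS replicate 1 (0.0765), LPS replicate 2 (0.0810) or LPS replicate 3 (0.0809). Of 15 tested genes of the nuclear complex and its co-repressors, 5 rose and none fell, which is 33.3% called, below the 39.1% of all tested genes, with a median log2 fold change of 0.01. Rbpj averaged 35.5 ± 2.07 FPKM with LPS and 23.9 ± 3.19 FPKM without (log2 fold change 0.52 ± 0.089 SE, adjusted p = 0.00231). The Mastermind co-activators Maml3 and Maml2 were 1.39-fold and 1.29-fold higher. The more abundant Maml1 did not pass (log2 fold change -0.13, adjusted p = 0.0740, edgeR). The other called genes of this list, the co-repressor genes Hdac1 and Ctbp1, were 1.15-fold and 1.11-fold higher. Maml1, Hdac1 and Ctbp1 are named after their values were seen.

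Among 12 tested genes of endocytosis and turnover, 7 fell and 1 rose, which is 66.7% called, against 39.1% of all tested genes (19.0% lower). Dtx4 and Fbxw7, which encode ubiquitin ligases of Notch trafficking and of Notch breakdown, were each 1.33-fold lower. The call of Dtx4 was lost in 4 of 15 alternatives, on leaving out untreated replicate 3 (0.0852), LPS replicate 1 (0.0528), LPS replicate 2 (0.0849) or LPS replicate 3 (0.0551), by edgeR's adjusted p. That of Fbxw7 was lost in 5 of 15, among them leaving out untreated replicate 2 (0.118), LPS replicate 1 (0.0508), LPS replicate 2 (0.1002) or LPS replicate 3 (0.0639). Dtx3l, a Deltex relative that is also a known interferon-response gene, was 1.59-fold higher. Mib1 and Mib2, the ubiquitin ligases that prepare Notch ligands for endocytosis in the sending cell, were 1.33-fold and 1.27-fold lower and are named after their values were seen. Of the other receptors and ligands, 4 were tested, of which 1 rose and 3 fell (100% called, against 39.1% of all tested genes). Mfap5, the most abundant of these 4, averaged 68.6 ± 3.90 FPKM with LPS and 86.6 ± 0.947 FPKM without. It was 1.31-fold lower (adjusted p = 0.000643, edgeR) and is named after its values were seen. Dner, a transmembrane protein described as a non-classical Notch ligand, averaged 4.60 ± 0.411 FPKM with LPS and 1.95 ± 0.404 FPKM without and was 2.28-fold higher. The Delta-like proteins Dlk2 and Dlk1, which lack the domain that activates Notch, were 2.26-fold and 1.41-fold lower. Notch4 was below the filter, at 0.0955 ± 0.0331 FPKM with LPS and 0.0448 ± 0.0224 FPKM without (SD, n = 3 each), with overlapping groups. In the Hes family outside the members, Hes6, which encodes an inhibitor of HES1, was the only gene tested. It averaged 12.1 ± 0.888 FPKM with LPS and 9.19 ± 0.854 FPKM without and rose 1.27-fold (adjusted p = 0.0219), a call lost in 4 of 16 alternatives, on leaving out untreated replicate 2 (0.0504), untreated replicate 3 (0.0672), LPS replicate 1 (0.0925) or LPS replicate 2 (0.0643). Nrarp, a feedback inhibitor that Notch itself induces, stood at 0.052 ± 0.00743 FPKM with LPS and 0.0925 ± 0.0849 FPKM without, below the filter and overlapping. Notch4 and Nrarp, too, are named after their values were seen.

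The genes with the most similar profile were found by the root mean square difference of log2(FPKM + 1) values, each centred on its gene's mean over the 6 libraries, among 10654 other tested genes. Jag1, which fell most among the members past the filter, was closest to Ptger3, a prostaglandin E2 receptor (difference 0.117), Casq2, a calcium-binding protein of muscle (0.122), and Fzd8, a Wnt receptor (0.128). Fzd8 averaged 4.23 FPKM with LPS and 16.4 FPKM without. Notch2, the only called member that rose, was closest to Pc, which encodes pyruvate carboxylase (0.024), Ermp1, a protease of the endoplasmic reticulum (0.0253), and Dpysl2, a cytoskeletal regulator (0.0263). These 6 libraries form only 2 groups, and many genes share a step between them.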

How the data were processed

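The deposited table gave, per the file headers, an FPKM value and a count for each of 19266 genes in 6 libraries. The submitters' processing notes name the rat build mRatBN7.2 and the tools HISAT2 2.2.1, StringTie 2.1.6, cutadapt 1.9, edgeR and DESeq2. How the counts were made, from which annotation and with which strand setting, is not given in the sources used here. Libraries were poly(A)-selected and strand-marked, per the labels' protocols. The deposited counts were treated as estimated counts: all were whole, but 31.9% to 32.9% of those from 1 to 40 were multiples of 4 (25% by chance), so fragments were taken as counts divided by 4 (19.3 M to 20.5 M per library).

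Gene names were matched after trimming spaces. The 11559 genes that reached 1 FPKM in 3 or more libraries were tested with edgeR 4.0.16 (TMM, glmQLFit, glmQLFTest, group as the only term) in R 4.3.3, with Benjamini-Hochberg adjustment over all of them and a threshold of 0.05. SEs of log2 fold changes were obtained by dividing their absolute value by the square root of the F statistic. Members below the filter come from the same test on all genes, and their alternatives were added after seeing the data. The main tests used the counts as deposited, and counts divided by 4 were an alternative. Other alternatives used DESeq2 1.42.0, limma 3.58.1 on log2(FPKM + 1) or log2(FPKM + 0.1), other scalings and filters, a replicate block, and each library left out. Intervals are exact (scipy 1.17.1). edgeR and limma were run on simulated counts of genes past the filter, with a single fixed dispersion and no outlying library. That run does not cover members below the filter or the position of untreated replicate 1. The genes named outside the members are the up to 3 called genes of each pathway list with the largest change, filled to 2 with the most abundant. The members and lists were chosen with earlier results of these data known.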

Additional observations from a re-analysis of the deposited data

How the results depend on the processing

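Notch1, Notch3, Jag1 and Hey2 kept their direction and their call under every alternative that tested them. The count of members that rose, 1 with the reported settings, was 0 with quantile normalization and when the 50 most abundant genes were left out of the library sizes, and 0 to 1 on leaving out single libraries. The count that fell, 3, was 6 without a filter and 1 with an FPKM of at least 5, where Notch1 and Notch3 were not tested. It was 3 to 4 on leaving out single libraries and 4 with a replicate block, Hes1 being the addition. Jag2 reversed without untreated replicate 1 (log2 fold change 0.47) or LPS replicate 1 (0.26), never passing the test. The receptor shares kept their direction on leaving out any single library. Over all genes 2323 were higher and 2201 lower, so 51.3% of calls were higher, against 62.7% with limma on log2(FPKM + 1) (2820 and 1678), 44.3% with the 50 most abundant genes left out of the library sizes (2025 and 2549) and 44.9% with quantile normalization (1963 and 2412). The replicate numbers were not taken to pair the libraries: deviations from the group means correlated at 0.0689, 0.0846 and 0.125 between libraries of the same number, though each library correlated best with its own number. With a replicate block 2160 genes were higher and 2024 lower, and Hes1 passed as lower (log2 fold change -0.90, adjusted p = 0.0347). Receptor shares could not be recomputed from counts per length, since the table holds no transcript length. Depth limits Jag2, Hey1 and Heyl, which rest on 2 to 9 fragments over the LPS libraries. Reads of overlapping antisense genes may be mixed in, as the strand setting is not known.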
